A study of Arabidopsis thaliana with 20 samples.

Results

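The plastid genes trnW, trnP, trnC and trnH were chosen by name from the large single-copy region of the Arabidopsis thaliana chloroplast genome, together with the 200 bp on either side of each where the reference holds them. They are 4 of the 30 tRNA genes and of the 112 plastid genes tested. All 4 were measured in each of 20 libraries, and none was lost to a filter. trnW encodes the tRNA for tryptophan, trnP that for proline, trnC that for cysteine and trnH that for histidine.

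The assay was in vivo protein occupancy display (IPOD), in which formaldehyde fixes proteins to the DNA they touch. After fragmentation, DNA that carries protein is separated and sequenced (IPOD), and unfractionated DNA is sequenced beside it (input). The leaf set held 4 IPOD and 4 input libraries from Col0 wild-type plants 14 days old, grown on soil, with chloroplasts isolated before crosslinking. The seedling sets held 3 IPOD and 3 input libraries each of Col0 and of pTAC3, the mutant of a protein of the plastid transcription complex, from plants about 4 days old, grown on plates under continuous light and crosslinked before the chloroplasts were isolated. All groups were treated with 4% formaldehyde for 4 h. Leaf and seedling sets differed in age, growth and crosslinking order at once, so no test was made between them. The pTAC3 libraries carry a genotype label of wild type and were grouped by title and cell line label. The third Col0 seedling IPOD library is Col0 by title and ptac3 by its cell line label. It was kept with Col0, and the Col0 tests of trnP, of the flanks of trnP and trnC, of the local contrasts and of rpl2 are also given without it. The nuclear allele was not checked here, since the files cover plastid DNA. Nothing in the labels says that libraries of a group came from separate cultures, so p-values measure the spread between these libraries.

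Plastid tRNA genes are short and lie scattered among genes for photosynthesis and for gene expression. Many are transcribed by the plastid-encoded RNA polymerase (PEP), a bacterial-type enzyme that in plants carries a set of tightly bound nuclear-encoded proteins, of which pTAC3 is a member. Mutants lacking such a protein form pale seedlings with little PEP transcription. IPOD reads all crosslinked protein on DNA and does not tell polymerase from other proteins.

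Mean depth ran from 54.5 to 3383 reads per base over the libraries. A level is given below as depth divided by the library mean, here taken without the second copy of the inverted repeat. A ratio is given as the log2 of IPOD over input, after adding 10% of the median 50 bp bin to both. Tests were made with limma across all 112 genes with Benjamini-Hochberg adjustment, and a gene was called at an adjusted p under 0.05. Pairs, and the SDs of ratios, match IPOD and input libraries of the same number. In Col0 seedlings the correlations of deviations over bins were 0.26, 0.22 and 0.02 for numbers 1 to 3. Number 3 fell under the limit of 0.1 set for pairing, and it holds the IPOD library with the conflicting label. Col0 was therefore not taken as paired as a set. Counts of Col0 pairs and SDs of Col0 ratios thus rest, for number 3, on a match by number alone. Left means lower positions and right means higher positions of the reference.

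In Col0 seedlings, trnP rose in the protein-bound DNA and the other members did not pass the test. The level of trnP in input was 2.22, 1.88 and 1.85 times the library mean in libraries 1 to 3, and in IPOD it was 3.90, 3.59 and 2.52. All 3 IPOD libraries lay above all 3 inputs. Such a separation held for 49 of 112 genes in either direction (43.8%). The log2 ratio of trnP was 0.71 (SE 0.16, 95% interval 0.35 to 1.06, n = 3 against 3, adjusted p = 0.0211 by limma), a fold of 1.63, and it was above 0 in 3 of 3 number pairs. This made 1 of 4 members called higher, where 8 of 112 genes were (7.14%), and all 8 of those were tRNA genes, against 30 tRNA genes tested. It ranked 5 of 112 genes. Without the third IPOD library, the one with the conflicting label, the ratio of trnP was 0.89 (adjusted p = 0.00159 by limma). The call was lost without input 2 (0.67, adjusted p = 0.0747 by limma), input 3 (0.66, adjusted p = 0.102), IPOD 1 (0.58, adjusted p = 0.108) or IPOD 2 (0.64, adjusted p = 0.084), and also when each library was centred on its median (0.73, adjusted p = 0.0503).

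In pTAC3 seedlings, trnP was not called. Input levels were 1.82, 1.78 and 1.66, and IPOD levels were 1.98, 1.82 and 1.32, so the fractions overlapped. The log2 ratio of trnP was -0.06 (SE 0.16, 95% interval -0.41 to 0.30, adjusted p = 0.968 by limma). The ratios by number were 0.12, 0.03 and -0.31, all under the lowest Col0 ratio of 0.43. Ratios of the 2 genotypes did not overlap for 56 of 112 genes (50%). The difference of the ratio between genotypes, pTAC3 minus Col0, was -0.76 for trnP (SE 0.23, 95% interval -1.27 to -0.25, unadjusted p = 0.00695), and it did not pass over all genes (adjusted p = 0.109 by limma). With a variance trend and robust variances in the same fit it passed (adjusted p = 0.016), as 7 of 112 genes were then called lower. In this comparison 3 of 112 genes were called lower (2.68%), all of them other tRNA genes, and trnP ranked 110 of 112. Without the third Col0 IPOD library the difference was -0.95 and passed (adjusted p = 0.0135 by limma), with 7 of 112 genes called lower, and without pTAC3 IPOD 1 it was -0.87 and passed (adjusted p = 0.0452). The input level of trnP itself differed between genotypes by -0.16 on the log2 scale (SE 0.16, adjusted p = 0.6 by limma), with 0 of 112 genes called in input (0%) and 9 higher and 5 lower at an unadjusted p under 0.05.

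In leaf, trnP had the highest ratio of the members as well. Input levels were 1.17, 2.09, 1.23 and 1.25, and IPOD levels were 2.23, 4.31, 1.90 and 1.70. Library 2 was the highest in both fractions and the fractions overlapped, but IPOD lay above the input of its own number in 4 of 4 pairs, with log2 ratios of 0.87, 1.02, 0.58 and 0.42. The ratio of trnP was 0.72 (SE 0.29, 95% interval 0.06 to 1.38, adjusted p = 0.483 by limma), a fold of 1.65. Without IPOD 2 it was 0.44 (adjusted p = 0.679 by limma). No gene of 112 was called in leaf (0%), with 8 higher and 2 lower at an unadjusted p under 0.05. Leaf libraries of the same number deviated together, and with the replicate number as a block trnP was called higher (adjusted p = 0.0293 by limma), as were 16 of 112 genes (14.3%), 12 of them tRNA genes. That blocked call was lost without number 1 (0.67, adjusted p = 0.175), number 2 (0.62, adjusted p = 0.0877) or number 3 (0.77, adjusted p = 0.0662) and held without number 4 (0.82, adjusted p = 0.00218).

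**Figure D1:**
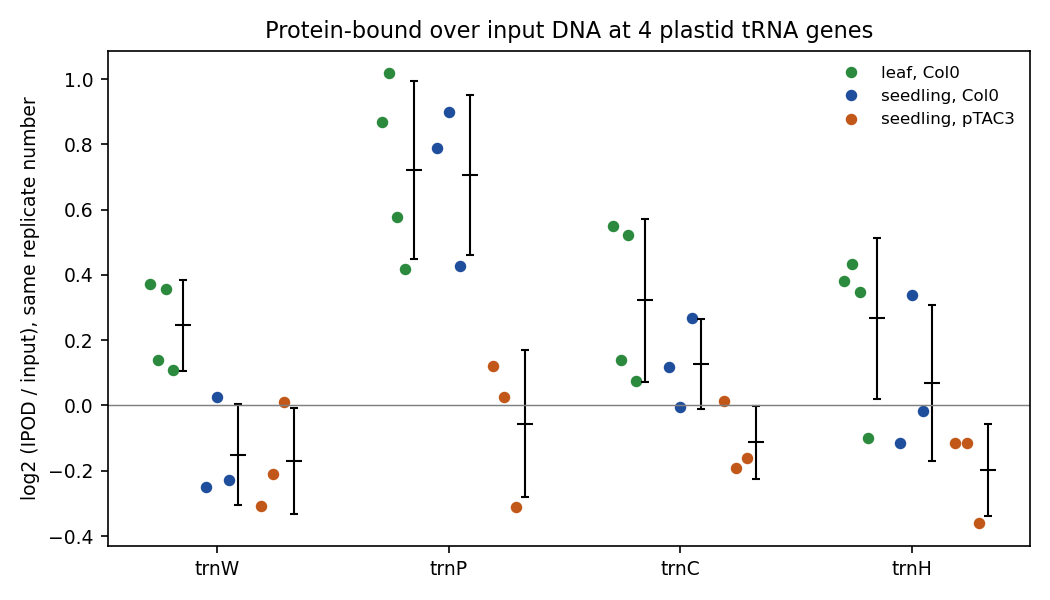
Log2 ratio of IPOD over input at each gene (vertical axis) for every pair of libraries with the same replicate number in leaf (n = 4), Col0 seedlings (n = 3) and pTAC3 seedlings (n = 3). Points are pairs and black bars give the mean and SD. The mean of trnP is the highest of the members in each set, at 0.72 in leaf, 0.71 in Col0 seedlings and -0.06 in pTAC3.

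trnW lies 187 bp to the left of trnP, and each gene is 74 bp long. It had a lower ratio than trnP in all 3 sets, and in Col0 seedlings it lay below 0. Input levels of trnW in Col0 were 2.03, 1.75 and 2.04, and IPOD levels were 1.70, 1.79 and 1.73. The fractions overlapped, and only the ratio of number 2 was above 0, at 0.03. The log2 ratio of trnW was -0.15 (SE 0.12, 95% interval -0.41 to 0.11, adjusted p = 0.427 by limma), the lowest of the 30 tRNA genes and rank 93 of 112 genes. In pTAC3 the input levels of trnW were 2.04, 1.67 and 1.36 and the IPOD levels 1.63, 1.43 and 1.37. The ratio was -0.17 (SE 0.12, adjusted p = 0.952 by limma), and the difference between genotypes was -0.02 (95% interval -0.39 to 0.35, adjusted p = 0.931). This interval overlapped that of trnP (-1.27 to -0.25). Whether the genotype difference varied between trnP and trnW was not tested.

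In leaf, trnW had input levels of 0.956, 1.33, 0.949 and 1.05 and IPOD levels of 1.28, 1.48, 1.25 and 1.14. The fractions overlapped through input 2, and the ratio was above 0 in 4 of 4 pairs. Its mean was 0.25 (SE 0.15, adjusted p = 0.581 by limma), which did not pass.

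The difference between the neighbours within a library, log2 trnP minus log2 trnW, was chosen as a measure after their values were seen. In Col0 it was 0.89 ± 0.33 in IPOD (SD, n = 3, from 0.52 to 1.17) and 0.03 ± 0.15 in input (n = 3, from -0.14 to 0.13). The groups did not overlap and differed by 0.86, with an exact permutation p of 0.1, the smallest that 3 against 3 can give (two-sided). Without the third IPOD library they differed by 1.04. In leaf it was 0.84 ± 0.45 in IPOD and 0.36 ± 0.18 in input (SD, n = 4 each), a difference of 0.48 with an exact permutation p of 0.0857, where 0.0286 is the smallest possible, and of 0.26 without IPOD 2. Taken within the leaf numbers, which pair, IPOD exceeded input by 0.50, 0.88, 0.22 and 0.31, above 0 in 4 of 4 pairs, with a paired exact permutation p of 0.125, the smallest that 4 pairs allow (two-sided). In pTAC3 it was 0.18 ± 0.21 in IPOD and 0.07 ± 0.21 in input (SD, n = 3 each), a difference of 0.11 with an exact permutation p of 0.5. Adjusted over these 3 comparisons the exact permutation p-values were 0.15, 0.15 and 0.5 for Col0, leaf and pTAC3.

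Within this stretch the Col0 ratio was not centred on the gene body of trnP but reached beyond its right end. On the TAIR10 numbering of the files, the 50 bp bin 66251-66300 in trnW had a Col0 ratio of -0.14 ± 0.15 (SD, n = 3). The ratio was 0.30 ± 0.15 in the bin 66401-66450 between the genes, 0.71 ± 0.24 in the bin 66501-66550 inside trnP, and 0.79 ± 0.28 in the bin 66551-66600 across its right end. It was still 0.67 ± 0.28 in the bin 66601-66650 and 0.45 ± 0.05 in the bin 66651-66700, and then -0.08 ± 0.21 in the bin 66701-66750. The pTAC3 ratio lay between -0.20 and 0.08 in the bins from 66251 to 66750. The leaf ratio had a more even slope along the stretch, from 0.25 ± 0.15 (SD, n = 4) in trnW to 0.72 ± 0.27 inside trnP. The leaf mean also reached past the right end, at 0.69 ± 0.46 in the bin 66551-66600 and 0.53 ± 0.51 in the bin 66601-66650. It was 0.20 ± 0.33 in the bin 66651-66700 and 0.04 ± 0.22 in the bin 66701-66750.

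The gene table used gives no strand. On plastid maps of land plants trnP and trnW are read toward lower positions, so the right side of trnP is the side on which its transcription begins. The 200 bp windows on both sides of every gene were therefore fitted together, 223 windows in all, a fit added after the profile was seen. The right flank of trnP rose in Col0 IPOD by 0.60 on the log2 scale (SE 0.14, 95% interval 0.30 to 0.90, adjusted p = 0.0172 by limma), where 14 of 223 windows were called higher (6.28%), and it ranked 8 of 223. Its ratios by number were 0.75, 0.69 and 0.37. The left flank of trnP, between the genes, had 0.13, 0.26 and -0.03 and a mean of 0.12 (adjusted p = 0.503 by limma). The right flank of trnW, by the same direction its own start side, overlaps that window and had 0.21 in Col0 (adjusted p = 0.188 by limma). The call at the right flank of trnP was lost without input 1 (adjusted p = 0.0533 by limma), input 2 (0.0782), input 3 (0.0544), IPOD 1 (0.114) or IPOD 2 (0.0878), with differences from 0.52 to 0.61, and held without IPOD 3 (difference 0.72, adjusted p = 0.00893). In leaf the right flank of trnP had ratios of 0.51, 0.87, 0.37 and -0.15, with a mean of 0.40 (adjusted p = 0.525 by limma). In pTAC3 the right flank of trnP had ratios of 0.33, 0.07 and -0.29. The difference between genotypes there was -0.56 (SE 0.20, 95% interval -0.99 to -0.14, unadjusted p = 0.0132, adjusted p = 0.263 by limma), with 3 of 223 windows called lower (1.35%). Without the third Col0 IPOD library it was -0.68 (adjusted p = 0.108 by limma). It passed only without pTAC3 input 1 (-0.72, adjusted p = 0.0233) among the libraries left out in turn, and it also passed with the variance trend (adjusted p = 0.00829).

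**Figure D2:**
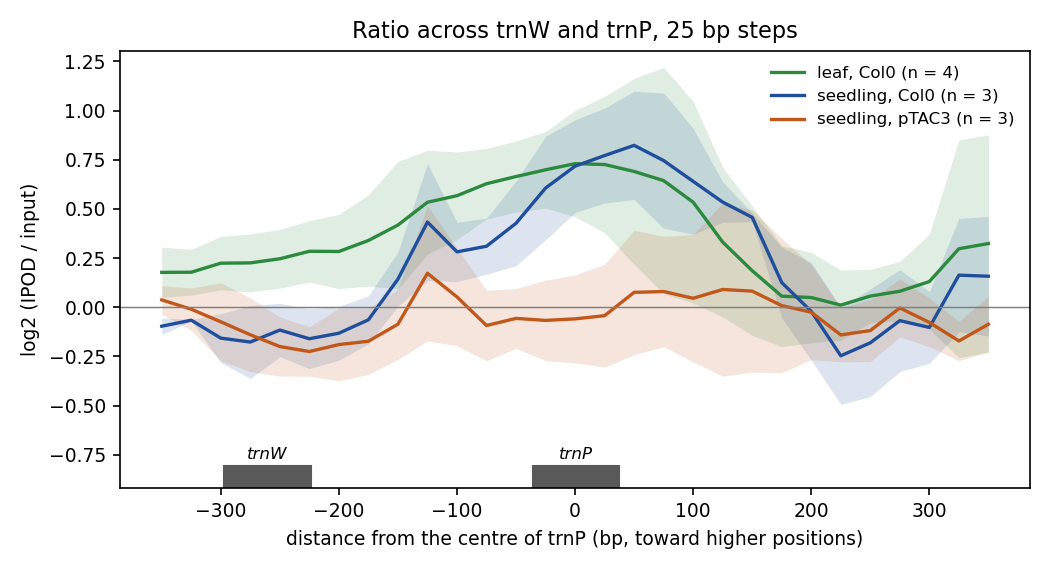
Log2 ratio of IPOD over input (vertical axis) in 25 bp steps against distance in bp from the centre of trnP, with lines for the mean and bands for the SD of each set and grey boxes for the genes. Both seedling lines are below 0 over trnW; the Col0 line peaks at 0.82 at 50 bp right of the centre of trnP and falls to about 0 by 200 bp, while the pTAC3 line lies between -0.23 and 0.17 over the plotted range.

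The same stretch had a strong pattern in input already. In Col0 input the level was 1.98 over trnW, 250 bp left of the centre of trnP, 0.33 between the genes at -125 bp, 2.01 at the centre of trnP and 0.28 at 150 bp. The Col0 IPOD level was 1.82, 0.47, 3.41 and 0.42 at the same places. Both genes thus stood above their surroundings in input as well as in IPOD. In input, trnP stood 2.26 ± 0.24 times above its flanks in Col0 (SD, n = 3), 2.11 ± 0.28 times in pTAC3 (n = 3) and 1.57 ± 0.49 times in leaf (n = 4). Other tRNA genes had medians of 1.74, 1.65 and 1.38 times in those inputs, and all 112 genes had 1.48, 1.35 and 1.10.

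**Figure D3:**
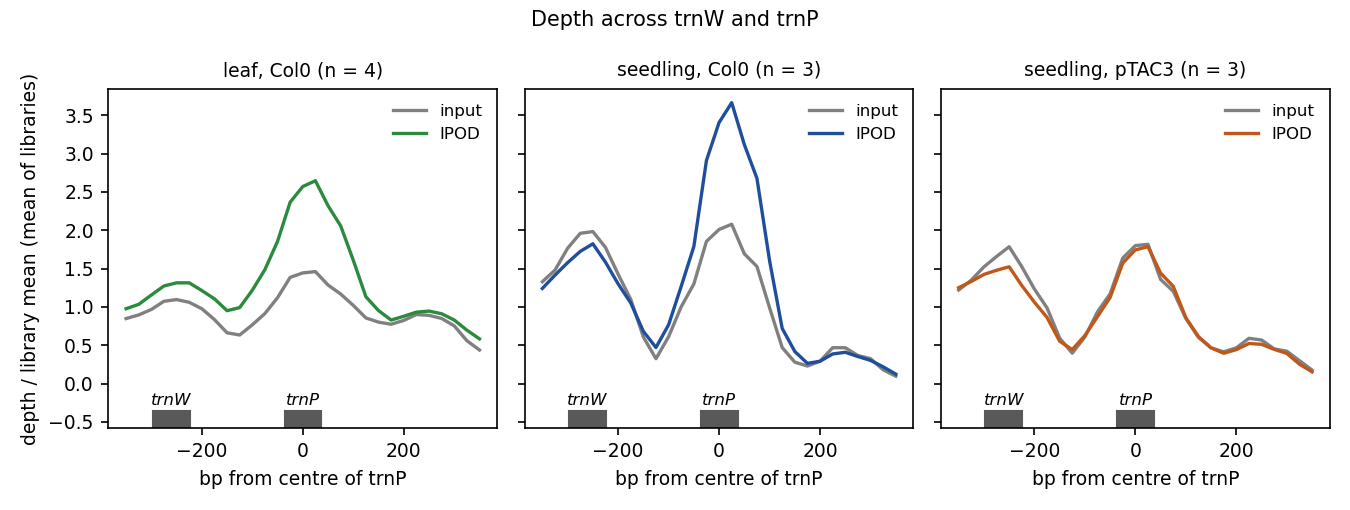
Depth divided by the library mean (vertical axis, mean of the libraries of a set) against distance in bp from the centre of trnP, for input (grey) and IPOD (colour). Both genes stand as peaks in each fraction, and in Col0 seedlings IPOD exceeds input at the centre of trnP (3.41 against 2.01) but not over trnW.

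Measured against its own flanks, trnP did not pass in any set. This local contrast, the log2 gene level minus that of the 200 bp on both sides, was higher in IPOD by 0.36 in Col0 seedlings (SE 0.14, 95% interval 0.05 to 0.66, 3 of 3 pairs above 0, adjusted p = 0.136 by limma). It was higher by 0.28 in leaf (SE 0.26, 4 of 4 pairs, adjusted p = 0.899 by limma) and changed by -0.01 in pTAC3 (SE 0.14, adjusted p = 0.996). In Col0, 2 of 112 genes were called higher and 6 lower (1.79% and 5.36%), and in the other 2 sets 0 were called by limma (0%), with 2 higher and 3 lower in leaf and 2 higher and 1 lower in pTAC3 at an unadjusted p under 0.05. For trnW the Col0 local contrast was -0.25 (SE 0.12, 0 of 3 pairs above 0, adjusted p = 0.209 by limma). Without the third Col0 IPOD library these Col0 contrasts were 0.46 for trnP (adjusted p = 0.0726 by limma) and -0.25 for trnW (adjusted p = 0.318). The genotype difference of the local contrast was -0.36 for trnP (SE 0.20, adjusted p = 0.484 by limma) and 0.07 for trnW (SE 0.18, adjusted p = 0.944), and without that library -0.47 and 0.08. No gene of 112 was called there (0%).

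The protein genes on either side of the pair gave no call. petG, 117 bp to the left of trnW, encodes a small subunit of the cytochrome b6f complex, and had log2 ratios of -0.13 in leaf, -0.05 in Col0 and 0.20 in pTAC3. psaJ, 365 bp to the right of trnP, encodes a small subunit of photosystem I, and had 0.02, -0.06 and 0.24. The adjusted p-values by limma were from 0.699 to 0.972 for both genes in leaf and Col0 and were 0.952 in pTAC3.

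At trnC, the higher mean ratio in Col0 seedlings lay to the left of the gene and not on it. The left flank alone was not tested against the gene. trnC is 71 bp long, with rpoB, the gene of a core subunit of PEP, 1043 bp to its left and petN, the gene of a small cytochrome b6f subunit, 645 bp to its right. On the gene, input levels in Col0 were 1.81, 1.63 and 1.50 and IPOD levels 1.97, 1.63 and 1.83. The fractions overlapped, and the ratio of trnC was 0.13 (SE 0.10, 95% interval -0.09 to 0.34, adjusted p = 0.412 by limma). Against both flanks together, the Col0 local contrast of trnC was -0.0015 (SE 0.13, adjusted p = 0.994 by limma). Without the third Col0 IPOD library it was -0.0039 (adjusted p = 0.994 by limma).

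Left of trnC, the Col0 ratio was 0.75 ± 0.47 in the bin 27151-27200, 0.59 ± 0.25 in the bin 27201-27250, 0.53 ± 0.15 in the bin 27251-27300 and 0.54 ± 0.13 in the bin 27301-27350 (SD, n = 3). It was 0.10 ± 0.13 in the next bin, 27351-27400, where the gene begins, and was -0.19 ± 0.09 in the bin 27501-27550 to its right. All 3 pairs were above 0 in each of the 4 bins on the left. The levels there were below those on the gene in both fractions. At 250 bp left of the centre of trnC, Col0 input was 0.39 and IPOD 0.78. At 100 bp left they were 0.60 and 0.94, and at the centre 1.67 and 1.84. The left flank of trnC as a whole had ratios of 0.39, 0.63 and 0.37 and the right flank -0.09, -0.28 and -0.01. On plastid maps of land plants trnC is read toward higher positions, so the left side is the one on which its transcription begins. Whether the ratio goes with the start sides of these genes was not tested.

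The left flank of trnC ranked 12 of 223 windows in Col0 and missed the call narrowly, at 0.47 (SE 0.14, 95% interval 0.16 to 0.77, adjusted p = 0.0547 by limma). It passed under 6 other settings and without any of 3 pTAC3 libraries, pTAC3 input 1 (adjusted p = 0.00829), pTAC3 input 3 (0.0275) and pTAC3 IPOD 1 (0.0446), which enter through the shared spread. Without the third Col0 IPOD library the left flank of trnC had 0.49 (adjusted p = 0.0845 by limma). The right flank had -0.13 (SE 0.09, adjusted p = 0.474 by limma). In pTAC3 the left flank had ratios of 0.18, -0.08 and -0.17 and a mean of -0.02 (SE 0.14, adjusted p = 0.999 by limma). The difference between genotypes at the left flank of trnC was -0.49 (SE 0.20, 95% interval -0.92 to -0.06, unadjusted p = 0.0274, adjusted p = 0.316 by limma). Without pTAC3 input 1 it was -0.67 and passed (adjusted p = 0.023 by limma), and without the third Col0 IPOD library it was -0.51 (adjusted p = 0.33).

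**Figure D4:**
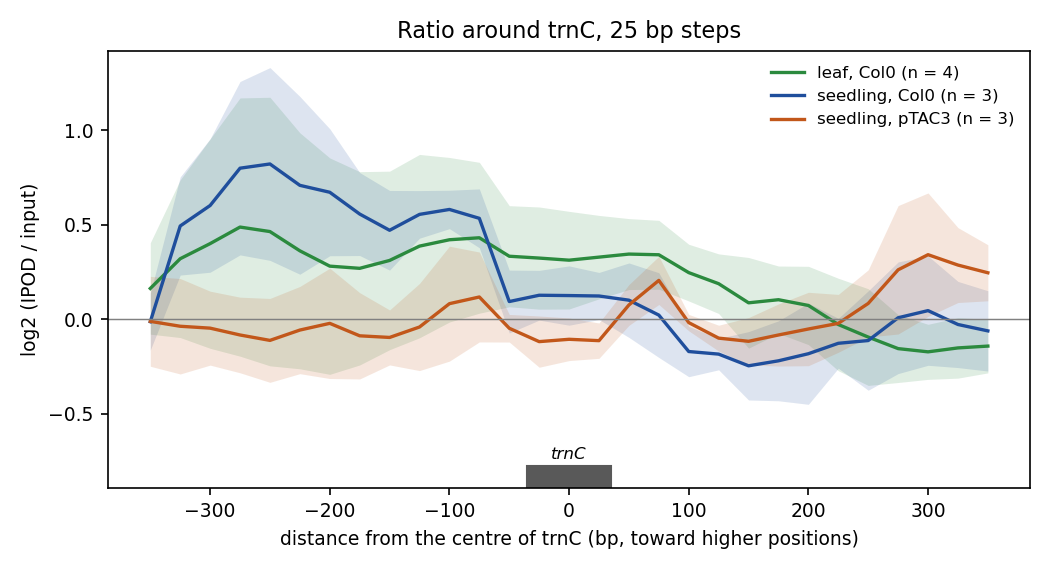
Log2 ratio of IPOD over input (vertical axis) in 25 bp steps against distance in bp from the centre of trnC, with lines for the mean and bands for the SD of each set. The Col0 seedling line is highest left of the gene, at 0.82 at -250 bp, and is at 0.13 on the gene, while the pTAC3 line stays near 0 on that side.

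On the gene itself, trnC in pTAC3 had input levels of 1.51, 1.57 and 1.38 and IPOD levels of 1.52, 1.36 and 1.22. Its ratio was -0.11 (SE 0.10, adjusted p = 0.952 by limma), and the genotype difference was -0.24 (95% interval -0.54 to 0.06, adjusted p = 0.333). In leaf, input levels were 1.15, 1.83, 0.993 and 1.04 and IPOD levels 1.75, 2.03, 1.48 and 1.10. The leaf ratio of trnC was above 0 in 4 of 4 pairs, from 0.07 to 0.55, with a mean of 0.32 (SE 0.23, adjusted p = 0.581 by limma). That mean was 0.20 without IPOD 2 and 0.50 without input 2, and neither passed.

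The leaf ratios around trnC varied widely between libraries. The left flank had 0.56, 0.62, 0.53 and -0.31, with number 4 apart from the other 3, a mean of 0.35 and an adjusted p of 0.525 by limma over 223 windows, of which 0 were called (0%). Without IPOD 4 the left flank of trnC had 0.63 and passed (adjusted p = 0.0331 by limma), among 26 of 223 windows then called higher, with 5 called lower. Of the 7 member windows, 5 were called higher at that setting. The others were the right flank of trnH, the right flank of trnW and both flanks of trnP. The flanks between trnW and trnP were above 0 in 4 of 4 leaf pairs, from 0.28 to 0.75 right of trnW and from 0.25 to 0.72 left of trnP. These 2 windows share the 187 bp between the genes. With the replicate number as a block they were called higher, at 0.52 right of trnW and 0.48 left of trnP (adjusted p = 0.037 by limma for each), with 35 of 223 windows called higher (15.7%). The call right of trnW was lost without number 1 (0.44, adjusted p = 0.18) or number 3 (0.52, adjusted p = 0.128), and that left of trnP without number 1 (0.40, adjusted p = 0.18), number 2 (0.48, adjusted p = 0.0504) or number 3 (0.48, adjusted p = 0.133).

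rpoB had log2 ratios of -0.26 in leaf, -0.13 in Col0 and 0.04 in pTAC3, and petN had 0.13, 0.02 and 0.05. Neither passed in any set, with adjusted p-values by limma of at least 0.142.

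trnH is 73 bp long and lies at the start of the linear reference and had the lowest levels of the members. Over the first 10 positions the level ran from 0.022 to 0.27 in the 20 libraries. How reads across the junction of the circle were placed is not given in the sources used here, and its part in these levels was not tested. Its level was 0.486 ± 0.078 in Col0 input (SD, n = 3), 0.483 ± 0.094 in pTAC3 input (n = 3) and 0.107 ± 0.043 in leaf input (n = 4). Depth at trnH was as low as 12.9 reads per base in a leaf IPOD library, and the added 10% of the median bin weighs more on it than on the other genes. Left of it the file holds only a few bases, so its flank is the right one, toward psbA, the gene of the D1 protein of photosystem II, 306 bp away.

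trnH did not pass the test in any set. Col0 IPOD levels were 0.523, 0.558 and 0.469 against inputs of 0.570, 0.416 and 0.473, and the ratio of trnH was 0.07 (SE 0.16, 95% interval -0.28 to 0.42, adjusted p = 0.799 by limma). In pTAC3 the ratios by number were -0.11, -0.12 and -0.36, below 0 in 3 of 3 pairs and the lowest mean of all 112 genes, at -0.20 (SE 0.16, 95% interval -0.55 to 0.15, adjusted p = 0.952 by limma). The genotype difference of trnH was -0.27 (95% interval -0.76 to 0.23, adjusted p = 0.463 by limma). In leaf, IPOD levels were 0.132, 0.257, 0.139 and 0.0998 against inputs of 0.0695, 0.165, 0.0793 and 0.113. Numbers 1 to 3 had ratios of 0.38, 0.43 and 0.35 and number 4 had -0.10, for a mean of 0.27 (SE 0.19, adjusted p = 0.581 by limma). Without IPOD 2 the mean of trnH was 0.12 (adjusted p = 0.914 by limma).

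**Figure D5:**
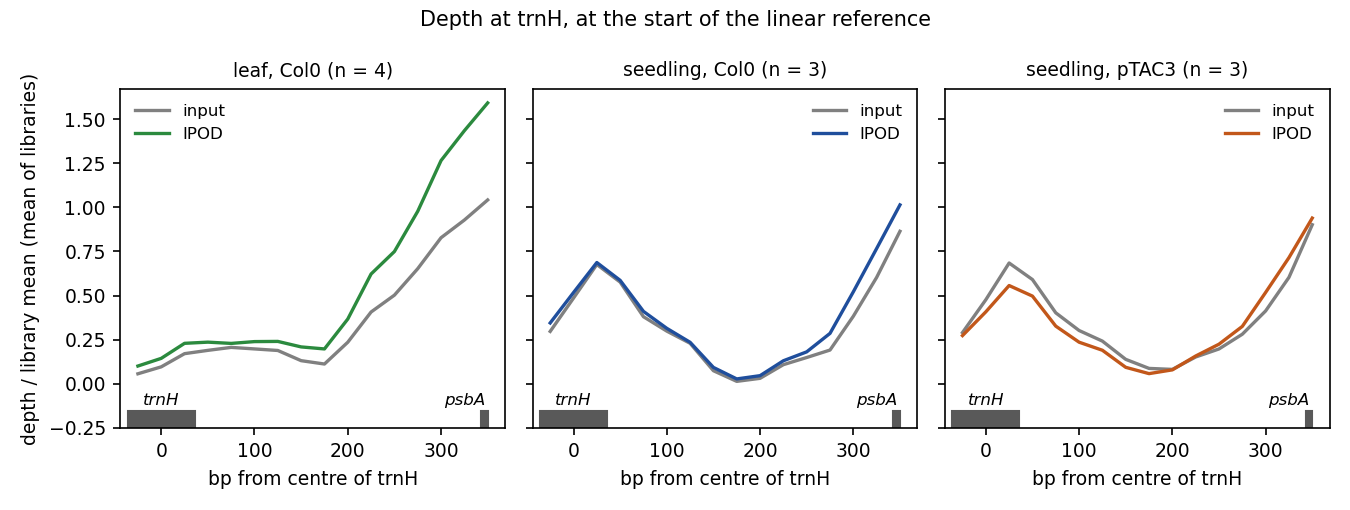
Depth divided by the library mean (vertical axis, mean of the libraries of a set) against distance in bp from the centre of trnH, for input (grey) and IPOD (colour). In seedlings both fractions have a peak near the right end of trnH, drop low before psbA and rise again at psbA. Col0 input is 0.68 at 25 bp, 0.01 at 175 bp and 0.86 at 350 bp. In leaf, depth over trnH is low and also rises toward psbA.

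The right flank of trnH had ratios of 0.51, 0.44, 0.48 and -0.33 in leaf, with number 4 again apart, 0.13, 0.06 and -0.02 in Col0 and -0.30, -0.08 and -0.21 in pTAC3, with adjusted p-values by limma of at least 0.525. Without leaf IPOD 4 the right flank of trnH had 0.51 and passed (adjusted p = 0.0373 by limma), among the 26 of 223 windows called higher at that setting. psbA had ratios of 0.73 in leaf (SE 0.18, adjusted p = 0.243 by limma; 0.89 and adjusted p = 0.00843 without IPOD 4, when 4 of 112 genes were called), 0.15 in Col0 (SE 0.06, adjusted p = 0.126) and 0.02 in pTAC3. rpl2, a gene for a large ribosomal subunit protein, lies in the inverted repeat. The copy that adjoins trnH across the junction of the circle was left out with the second repeat copy. The copy that was measured does not border trnH, and it had ratios of -0.22 in leaf, -0.22 in Col0 and 0.00 in pTAC3. In Col0, rpl2 was called lower (SE 0.06, adjusted p = 0.0324 by limma), as were 4 of 112 genes (3.57%). That call was lost without any 1 of the 6 Col0 libraries (adjusted p from 0.07 to 0.137 by limma, 0.07 without the third IPOD library).

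Across the members the order of the ratios was trnP, trnC, trnH and trnW in leaf and in Col0. In leaf, trnP exceeded trnC by 0.40 ± 0.34 (SD over 4 pairs, 4 of 4 above 0), and the steps from trnC to trnH (0.06 ± 0.23) and from trnH to trnW (0.02 ± 0.21) were smaller than their spread. In Col0, trnP exceeded trnC by 0.58 ± 0.38 (3 of 3 pairs), trnC exceeded trnH by 0.06 ± 0.35 (2 of 3) and trnH exceeded trnW by 0.22 ± 0.09 (3 of 3). In pTAC3 the order was trnP, trnC, trnW and trnH, and all steps were within their spread. The median ratio of the 4 members was 0.29 in leaf, 0.10 in Col0 and -0.14 in pTAC3. The other 26 tRNA genes had medians of 0.46, 0.24 and -0.04, and all 112 genes had -0.06, -0.05 and 0.03. Of the other tRNA genes, 7 of 26 were called higher in Col0. In pTAC3 0 of 112 genes were called by limma (0%), with 4 higher and 1 lower at an unadjusted p under 0.05. The comparisons of pTAC3 with Col0 and of Col0 IPOD with input share the Col0 libraries.

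The genes whose 10 ratios (4 leaf, 3 Col0 and 3 pTAC3 pairs) ran most like those of a member were named by Pearson's r, as a description with no test, since ratios of the same pair share libraries. For trnP these were trnQ, the glutamine tRNA gene (r = 0.94), and trnL (Arthct122), a leucine tRNA gene (r = 0.92). trnQ had mean ratios of 0.78 in leaf, 0.90 in Col0 and -0.11 in pTAC3, and trnL (Arthct122) had 0.54, 0.85 and -0.14. For trnH they were trnE (r = 0.94) and trnT (r = 0.93), the glutamate and a threonine tRNA gene. For trnC they were trnR (ArthCt127), an arginine tRNA gene (r = 0.88), and trnF, the phenylalanine tRNA gene (r = 0.86). For trnW they were trnD, the aspartate tRNA gene (r = 0.88), with -0.01 in Col0 and -0.02 in pTAC3, and psbA (r = 0.84). Between neighbours trnP and trnW the same r was 0.41, lower than between trnP and trnH (0.83). Each r pools the 3 sets, so differences between set means enter it as well as differences between libraries.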

How the data were processed

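The deposited values are read depth per base of the plastid genome, a coverage signal that the authors deposited as whole numbers for 154477 positions, with means that differ between libraries, as unscaled values do. The submitters' processing notes list Trim Galore 0.4.1, Bowtie2 2.2.8.9, bedtools 2.25.0 and TAIR10, without saying how each was used. The placement of reads that match both repeat copies is not given in the sources used here. Because a read covers many bases, no count model and no counting interval was used.

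Genes came from a RefSeq table of TAIR10.1, of which no coordinate is printed, and whose repeat has the same mirrored positions in 11 of 11 gene pairs; 129 plastid genes are listed and 112 of at least 70 bp remained with 1 copy of the inverted repeat. Depth per gene was divided by the library mean without the second repeat copy, 10% of the median 50 bp bin was added, and log2 was taken. limma 3.58.1 (R 4.3.3) was fitted to 8 leaf libraries and, separately, to 12 seedling libraries; it was tested on simulated data. Mean depth was 54.5 to 1078 (leaf IPOD), 138 to 3383 (leaf input) and 113 to 441 (seedlings). The numbers pair leaf libraries (correlations of deviations over bins from 0.63 to 0.92) and pTAC3 libraries (0.23 to 0.77). Named genes are the members, their nearest neighbours and the 2 genes most alike. Members and lists were chosen with earlier results of these data known. Alternatives covered the pseudocount, scaling, centring, flank length, a variance trend, the replicate block and each library left out.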

Additional observations from a re-analysis of the deposited data

Results flagged for a closer look

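In leaf input, the log2 level of trnP was 1.11 in library 2, against 0.34, 0.41 and 0.43 in the other 3, a gap larger than expected within 4 values (Dixon's ratio 0.891, beyond the 95% critical value). The IPOD level of trnP was also highest in number 2 (2.13 on the log2 scale). The log2 ratio of trnH in leaf was -0.10 in number 4, against 0.35 to 0.43 in the other 3 (Dixon's ratio 0.837). The part of number 4 in the leaf results was measured by leaving it out: with the replicate block all 4 members were then called higher, trnP at 0.82 (adjusted p = 0.00218 by limma) and trnC at 0.40 (adjusted p = 0.019), where 35 of 112 genes were called higher and 28 lower. Chance flags about 1 in 20 such groups, and 16 groups of 4 values were examined.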

How the results depend on the processing

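Results for the 4 members and their 7 flank windows were recomputed 1228 times under other settings, of which 1089 kept direction and side of the threshold, 75 turned sign, 54 came to pass and 10 no longer passed. For the number of members called, other settings changed 0 of 4 in leaf to 1 with the replicate block and 4 with numbers 1 and 3 alone (trnP adjusted p = 0.00148 by limma, against 0.998 with numbers 2 and 4 alone), when 37 of 112 genes were called higher and 47 lower. In Col0 seedlings, 1 became 0 after centring. For the genotype difference, 0 became 1 (trnP) with the replicate block (adjusted p = 0.0079) and with a variance trend (adjusted p = 0.016). For the local contrast, 0 became 1 in leaf with numbers 1 and 3 alone, 2 in Col0 (trnP and trnW) with the replicate block or the 6 Col0 libraries alone, 1 in Col0 with flanks of 500 bp, and 1 in the genotype difference with the block. For the 7 flank windows, a fit added after the data were seen, 0 became 2 in leaf with the block (35 of 223 windows higher and 22 lower) and 6 with numbers 1 and 3 alone (76 higher and 91 lower). In Col0, 1 became 2 with the block, a pseudocount of 1%, centring, large single-copy scaling, the variance trend or the 6 Col0 libraries alone, each time adding the left flank of trnC. In the genotype difference, 0 became 2 with the block and 1 with the trend. Over all 112 genes the block moved the calls in Col0 from 8 higher and 4 lower to 22 and 15, and in the genotype difference from 0 and 3 to 14 and 18. The cause of these changes was not tested. In Col0 seedlings number 3 did not reach the limit of 0.1 for pairing (correlations of 0.26, 0.22 and 0.02 for numbers 1 to 3). Blocked seedling values are therefore given only here, and the block changed no other call of a member.

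Leaving out 1 library, the members called were 0 in leaf and ranged from 0 to 1 in Col0 and in the genotype difference. Under the leaf block a whole number was left out, its IPOD and input library together. The members called then ranged from 0 to 4 in leaf and from 0 to 1 in the leaf local contrast. Flank windows called with 1 library left out ranged from 0 to 5 in leaf, 0 to 2 in Col0 and 0 to 2 in the genotype difference.

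Signs turned for values near 0. On the gene: the genotype difference of trnW was 0.0080 with a 50% pseudocount; the input difference of trnH was -0.012 with 1%, -0.043 centred and -0.060 with large single-copy scaling. For the leaf local contrast: trnH 0.13 with 1%, 0.12 with 100 bp flanks and 0.11 with numbers 2 and 4, and, with the block, 0.031 without replicate 1 and 0.034 without replicate 3; trnC -0.020 with 100 bp flanks, -0.011 with numbers 2 and 4 and -0.0033 with the block without replicate 4; trnW 0.00005 with 500 bp flanks and 0.00052 with numbers 1 and 3. For the Col0 local contrast: trnH -0.0076 with 1% and -0.10 with 500 bp flanks; trnC 0.021 with 50% and 0.10 with 500 bp flanks. For that of pTAC3, trnH was 0.030 with 1% and 0.035 with 100 bp flanks; for that of the genotype difference, trnH 0.038 with 1% and 0.0011 with 100 bp flanks, trnW -0.042 with 100 bp flanks. Flank windows: trnH right in Col0 -0.011 with 50%, trnW left in Col0 0.00067 with large single-copy scaling, trnP right in pTAC3 -0.0085 centred.

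Signs also turned with 1 library left out, or in leaf with 1 number left out under the block. The ranges on the gene were: trnH in Col0 -0.015 to 0.17, trnP in pTAC3 -0.17 to 0.11, trnW in the genotype difference -0.15 to 0.12, trnH in input -0.12 to 0.10. Local contrast in leaf: trnW -0.14 to 0.082, trnC -0.10 to 0.29, trnH -0.15 to 0.12. In Col0: trnC -0.079 to 0.078, trnH -0.11 to 0.14. In pTAC3: trnP -0.13 to 0.13, trnC -0.20 to 0.015, trnH -0.18 to 0.12. In the genotype difference: trnC -0.20 to 0.017, trnH -0.20 to 0.11, trnW -0.055 to 0.23. Flank windows: trnC left in pTAC3 -0.20 to 0.10, trnC right in pTAC3 -0.072 to 0.0015, trnP right in pTAC3 -0.11 to 0.19, trnW left in Col0 -0.11 to 0.0028 and in leaf -0.078 to 0.15.

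The difference trnP minus trnW, also added after the data were seen, kept its sign in every alternative run. Centring moved leaf values up, trnP from 0.72 to 0.83. No gene was shorter than 70 bp, so a fit without that limit was not run. Of the members, depth limits trnH most.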
